A study of Mus musculus with 10 samples.

Results

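The genes of the 2 signals that make osteoclasts, RANK ligand and colony stimulating factor 1 (CSF1), were followed through RNA sequencing of medial mouse knee tissue described as cartilage. The 9 genes were chosen by symbol, as ligands, receptors, decoy, adaptors and signal transducer of these pathways, out of 35705 genes to which the deposited transcripts were summed. They are the ligands Tnfsf11 (RANK ligand), Csf1 and Il34, the receptors Tnfrsf11a (RANK) and Csf1r, the decoy Tnfrsf11b (osteoprotegerin), the transducer Traf6, and the receptor and adaptor pair Trem2 and Tyrobp. All 9 passed the filter of a mean of at least 1 TPM, which 13841 genes passed. TPM is a relative abundance that allows for transcript length and sums to 1000000 in each library.

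Osteoclasts are the bone-resorbing cells of the body and form by fusion of precursors of the monocyte and macrophage lineage. CSF1, and IL-34 through the same receptor, keep these precursors alive and dividing, and RANK ligand, made by osteocytes, osteoblasts, hypertrophic chondrocytes and marrow stromal cells, drives them into the osteoclast fate through RANK and TRAF6. Osteoprotegerin binds RANK ligand and holds it off its receptor, so the ligand is commonly read against the decoy. DAP12, the product of Tyrobp, carries an activation motif for receptors such as TREM2 and supplies the costimulation that RANK needs.

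The 10 libraries came from 10 mice, 5 wild-type controls and 5 mice null for Mir324, the gene of the microRNA miR-324, with no treatment in either group. The design text describes individually dissected animals, while the labels give no age, sex, litter or sequencing batch and do not say how the null allele was made. The study's title places it in work on miR-324 in osteoblasts and osteoclasts, and the comparison asks how the transcripts of this tissue differ without the microRNA. Read depth is unknown because the file holds no counts. The labels call the cells chondrocytes, and 7 of 10 chondrocyte markers passed the filter, Col2a1 at 91.4 ± 31.9 TPM in wild-type mice (SD, n = 5). Matn1, Matn3 and Col9a1, matrix genes of cartilage, averaged 0.169, 0.156 and 0.567 TPM there. Markers of bone and marrow cells were abundant too, as haemoglobin genes took up 11.2% to 19.7% of the TPM in wild-type and 15.7% to 26.1% in null libraries. The 8 neutrophil markers summed to 55669 to 109098 TPM in wild-type and 54656 to 111507 TPM in null mice. Bglap, an osteoblast marker, averaged 3577 TPM in wild-type mice, above Col2a1. The values below are therefore those of a mixed tissue of cartilage, bone and marrow. Wild-type replicate 1 stood apart on the first principal component, at 54.8 against -30.1 to 12.1 for the other 9 libraries, and values without it are given beside several of the results.

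The microRNA itself was not analysed here. Its mature strands, from RefSeq (GRCm38.p6), lie on the plus strand of chromosome 11 at 70012060 to 70012082 for miR-324-5p and 70012095 to 70012114 for miR-324-3p. They are shown because bases 2 to 8, the seed in capitals, pair with target messenger RNAs.
miR-324-5p: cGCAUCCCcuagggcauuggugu
miR-324-3p: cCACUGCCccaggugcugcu

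Matches to the seeds were searched on the mRNA strand of the longest annotated 3′ UTR of protein-coding transcripts (GENCODE M21, GRCm38), as GGGATGC for miR-324-5p and GGCAGTG for miR-324-3p. Among the 9 genes, 1 held GGGATGC, as did 8.5% of 12592 tested genes with a 3′ UTR, and 0 held GGCAGTG, against 15.4%. The match lay in Tnfrsf11a, at chr1:105845271-105845277 on the plus strand, base 405 of a 3′ UTR of 3115 bases, and was followed by an A. The shorter match GGATGC, contained in GGGATGC, was present in 5 of 9 genes and in 25.5% of tested genes, without matching for 3′ UTR length. GCAGTG, contained in GGCAGTG, was present in 2 of 9, Traf6 and Csf1r, and in 38.4%. The Csf1r match lay in the transcript Csf1r-202 and not in Csf1r-201. Csf1r-202 held 7.89% ± 2.12 of Csf1r in wild-type and 6.64% ± 0.536 in null mice (SD, n = 5). The miR-324-5p matches are shown with their flanks and the matching bases in capitals, because they are the stretches by which the microRNA could pair with these messengers. A match is a description of the letters and was not tested as a functional site.
Tnfrsf11a, 7 bases: aaagagtgaaaGGGATGCacggccactac
Tnfsf11, 6 bases: ttgaaattaagaGGATGCcatgtcattgc
Csf1, 6 bases: gaaagggctggaGGATGCcccccacatac
Il34, 6 bases: ggtcgggccactGGATGCatttcagaaac
Traf6, 6 bases: tgggaaatggatGGATGCttcccaattcc

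The match in Tnfsf11 lay at chr14:78278215-78278220, that in Csf1 at chr3:107742945-107742950 and that in Il34 at chr8:110742240-110742245, all on the minus strand. The match in Traf6 lay at chr2:101700778-101700783 on the plus strand.

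Tnfsf11 (ENSMUSG00000022015, chromosome 14, 78277445 to 78308043), the gene of RANK ligand, was the scarcest of the 9 by summed transcripts and, with all 10 mice, had the estimate furthest from 0. It measured 3.93, 4.45, 2.43, 3.98 and 2.62 TPM in wild-type replicates 1 to 5 and 2.08, 2.52, 2.80, 1.53 and 1.28 TPM in null replicates 1 to 5. All 5 null mice were below the wild-type mean and 3 were below every wild-type mouse, while null replicates 2 and 3 overlapped with wild-type replicates 3 and 5. The null mean of 2.04 ± 0.642 TPM was 58.6% of the wild-type mean of 3.48 ± 0.899 TPM (SD, n = 5 each). On the log2(TPM + 1) scale, which understates the change of low genes, the difference was -0.56 (SE 0.193, 95% interval -0.98 to -0.14). The limma p was 0.0136, 0.338 after Benjamini-Hochberg adjustment over all genes tested, so the difference did not pass correction. The exact permutation test, two-sided, gave p = 0.0397. In these bulk libraries, fewer cells of a type and less RNA per cell cannot be told apart.

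Tnfrsf11b (ENSMUSG00000063727, chromosome 15, 54250619 to 54278484), the decoy, was far more abundant than the ligand it binds. The 5 wild-type mice had 127, 43.4, 37.2, 68.7 and 47.5 TPM and the null mice 36.1, 51.4, 49.0, 43.8 and 28.7 TPM. Wild-type replicate 1 was the highest and the other wild-type mice shared most of the range of the null group. The means were 64.8 ± 36.8 and 41.8 ± 9.38 TPM (SD, n = 5), a difference of -0.50 (SE 0.295, adjusted p in limma 0.558, exact permutation p = 0.206). Without wild-type replicate 1 the difference was -0.22, less than the spread between mice.

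The ratio of ligand to decoy within a library does not depend on how libraries are scaled. Tnfsf11 divided by Tnfrsf11b was 0.0310, 0.102, 0.0653, 0.0579 and 0.0551 in wild-type replicates 1 to 5. It was 0.0576, 0.0489, 0.0572, 0.0348 and 0.0445 in null replicates 1 to 5. The lowest and the highest of the 10 ratios were both wild-type, replicates 1 and 2, and the null ratios lay between them. Put the other way, there were on average 18.6 ± 8.35 decoy transcripts per ligand transcript in wild-type and 21.3 ± 4.66 in null mice (SD, n = 5). The difference in mean log2 ratio was -0.28, from -4.11 ± 0.62 to -4.39 ± 0.30 (SD, n = 5, two-sided exact permutation p = 0.373, 0.497 adjusted over 4 ratios). Single mice set its size, since leaving out wild-type replicate 1 gave -0.51 (exact permutation p = 0.0635), wild-type replicate 2 gave -0.076 (p = 0.730) and Mir324-null replicate 4 gave -0.17. A ratio difference was therefore not detectable with these mice.

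**Figure D1:**
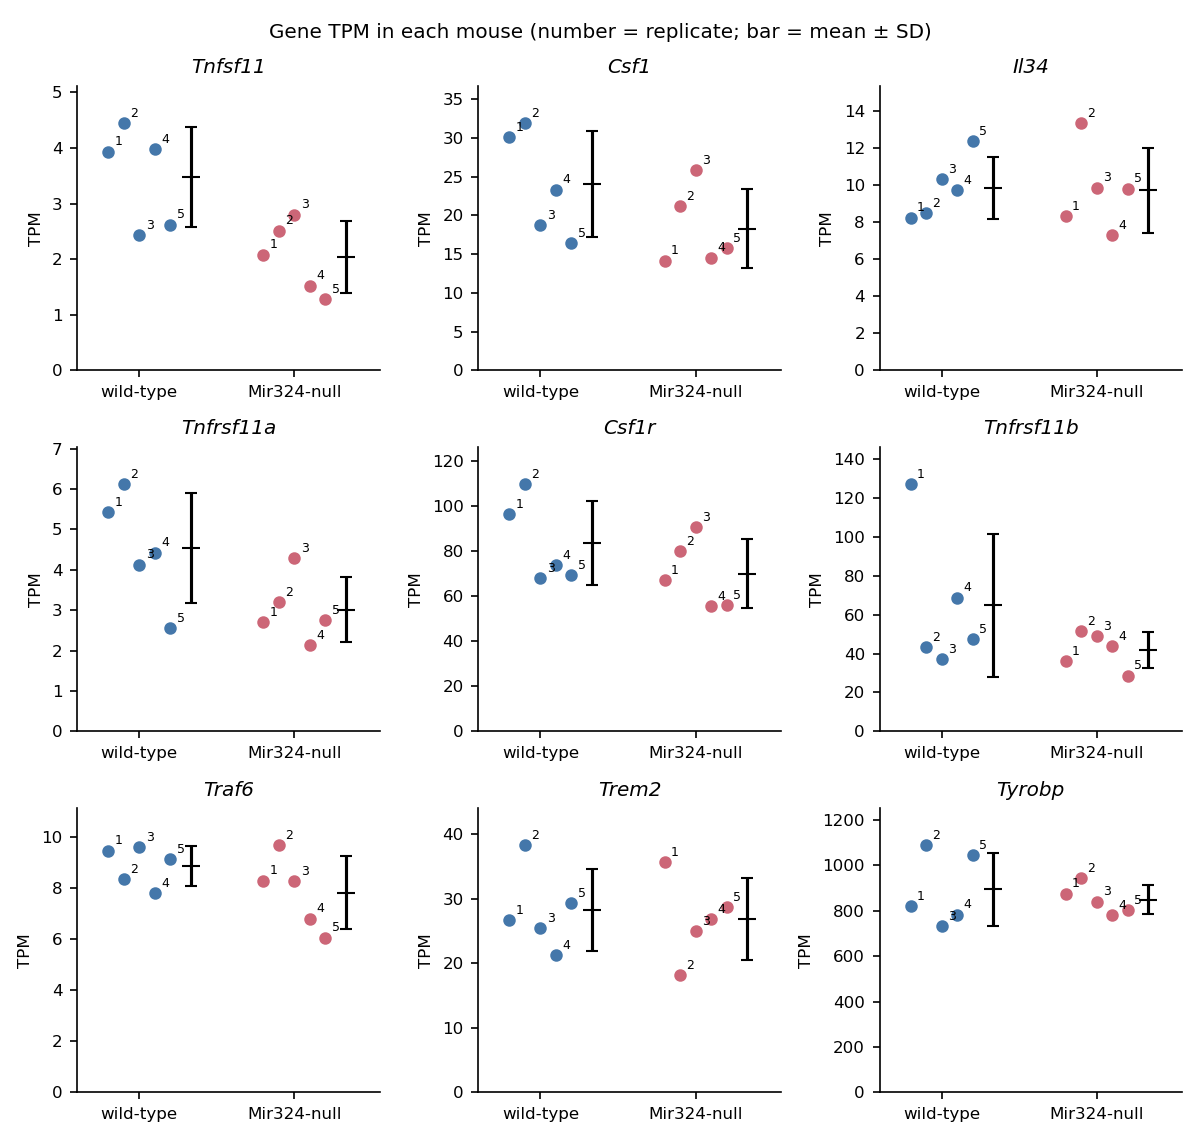
TPM of each gene in each mouse, with wild-type mice in blue and Mir324-null mice in red, the replicate number beside each point, and the mean ± SD (n = 5) as a black bar. Tnfsf11 shows 3 null mice below every wild-type mouse, while the 2 groups of Il34, Trem2 and Tyrobp lie over one another.

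Tnfrsf11a (ENSMUSG00000026321, chromosome 1, 105780718 to 105847981) encodes RANK, the receptor for the ligand on osteoclast precursors. Its wild-type values were 5.44, 6.12, 4.13, 4.42 and 2.55 TPM and its null values 2.70, 3.20, 4.29, 2.14 and 2.75 TPM. All 5 null mice lay below the wild-type mean, but wild-type replicates 3 and 5 were within the null range, and 3 wild-type mice were above every null mouse. The means were 4.53 ± 1.36 and 3.02 ± 0.808 TPM (SD, n = 5), a null level of 66.5% of wild-type. This was a difference of -0.45 (SE 0.203, exact permutation p = 0.0952, limma p = 0.0495, adjusted 0.429). It lay between -0.60 and -0.34 with 1 mouse left out, the limits being those without replicate 5 and replicate 2 of the wild-type group. Of the 10 such estimates, 2 had a limma p under 0.05 before adjustment, those without wild-type replicate 5 and Mir324-null replicate 3. Tnfrsf11a is also the gene with the 7-base match to miR-324-5p shown above.

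Traf6 (ENSMUSG00000027164, chromosome 2, 101678429 to 101701669), the ubiquitin ligase that carries the signal inward from RANK, varied least among wild-type mice, from 7.79 to 9.62 TPM with a coefficient of variation of 8.77%. In null mice it ranged from 6.06 to 9.69 TPM. The means of 8.87 ± 0.778 and 7.82 ± 1.42 TPM (SD, n = 5) differed by -0.17 (SE 0.129, exact permutation p = 0.206, Benjamini-Hochberg adjusted limma p = 0.671). Null replicates 4 and 5 lay below every wild-type mouse and the other 3 did not. The difference was -0.097 without Mir324-null replicate 5, -0.096 after rescaling without haemoglobin genes and -0.10 after quantile normalization.

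Csf1 (ENSMUSG00000014599, chromosome 3, 107741048 to 107760469), the main survival factor of macrophages and osteoclast precursors, measured 30.1, 31.9, 18.7, 23.3 and 16.4 TPM in wild-type mice. In null mice it measured 14.1, 21.2, 25.8, 14.5 and 15.8 TPM. Null replicates 1, 4 and 5 were below every wild-type mouse, whereas replicates 2 and 3 were in the middle of the wild-type range. The null mean of 18.3 ± 5.07 TPM was 76.0% of the wild-type mean of 24.1 ± 6.82 TPM (SD, n = 5), a difference of -0.37 (SE 0.213, exact permutation p = 0.159, Benjamini-Hochberg adjusted limma p = 0.543). Il34 (ENSMUSG00000031750, chromosome 8, 110741829 to 110805924), the second ligand of the same receptor, ranged from 8.27 to 12.4 TPM among wild-type mice and from 7.32 to 13.4 TPM among null mice. Its means of 9.85 ± 1.66 and 9.75 ± 2.29 TPM (SD, n = 5) differed by -0.026 (SE 0.159, 95% interval -0.37 to 0.32, exact permutation p = 0.873, Benjamini-Hochberg adjusted limma p = 0.975). Without wild-type replicate 1 the difference was -0.28 for Csf1 and -0.080 for Il34. The sign of the Il34 difference was the opposite after median ratio scaling, quantile normalization and rescaling without haemoglobin genes.

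The ratio of Csf1 to Il34 was 3.64, 3.75, 1.81, 2.39 and 1.32 in wild-type and 1.70, 1.59, 2.61, 1.99 and 1.61 in null mice. Csf1 was thus the more abundant ligand in every mouse, and wild-type replicates 1 and 2 had the highest ratios. The mean log2 ratio was 1.26 ± 0.65 in wild-type and 0.90 ± 0.30 in null mice (SD, n = 5), a difference of -0.36 (two-sided exact permutation p = 0.286, 0.497 adjusted over 4 ratios). Leaving out 1 mouse gave -0.20 (wild-type replicate 2), -0.21 (replicate 1) or -0.57 (replicate 5).

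Csf1r (ENSMUSG00000024621, chromosome 18, 61100598 to 61132149), the receptor tyrosine kinase shared by both ligands, marks monocytes and macrophages as well as osteoclasts. It stood at 96.3, 109.7, 68.1, 73.6 and 69.4 TPM in the wild-type group and 67.0, 80.1, 90.7, 55.7 and 56.2 TPM in the null group. The groups overlapped, with null replicates 1, 4 and 5 below the lowest wild-type mouse and replicates 2 and 3 inside the wild-type range. The means were 83.4 ± 18.6 and 69.9 ± 15.3 TPM (SD, n = 5), a difference of -0.25 (SE 0.172, exact permutation p = 0.222, Benjamini-Hochberg adjusted limma p = 0.632). It was -0.15 without wild-type replicate 2, -0.19 without wild-type replicate 1 and -0.16 after rescaling without haemoglobin genes. Csf1r overlaps Hmgxb3 on the opposite strand, which averaged 5.56 TPM, and the use of strand in the quantification is not given in the sources used here.

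RANK relative to the CSF1 receptor was compared because Csf1r is carried by the whole macrophage lineage. Tnfrsf11a divided by Csf1r was 0.0564, 0.0558, 0.0607, 0.0601 and 0.0368 in wild-type and 0.0402, 0.0400, 0.0474, 0.0384 and 0.0489 in null mice. Of the wild-type ratios, 4 lay above all 5 null ratios, and the one of replicate 5 lay below them. The log2 ratio differed by -0.31, from -4.24 ± 0.30 to -4.55 ± 0.16 (SD, n = 5, two-sided exact permutation p = 0.0794, 0.317 adjusted over 4 ratios). With 1 mouse left out the difference lay between -0.44 and -0.26, with an exact permutation p of 0.0159 to 0.143. Of these 10 estimates, 1 had a p under 0.05, the one without wild-type replicate 5 (-0.44, exact permutation p = 0.0159, 0.0635 after adjustment). It is the mouse whose ratio sat apart from its group. Leaving it out separated the 2 groups fully, so this p is the smallest the test can give with the mice that remain.

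**Figure D2:**
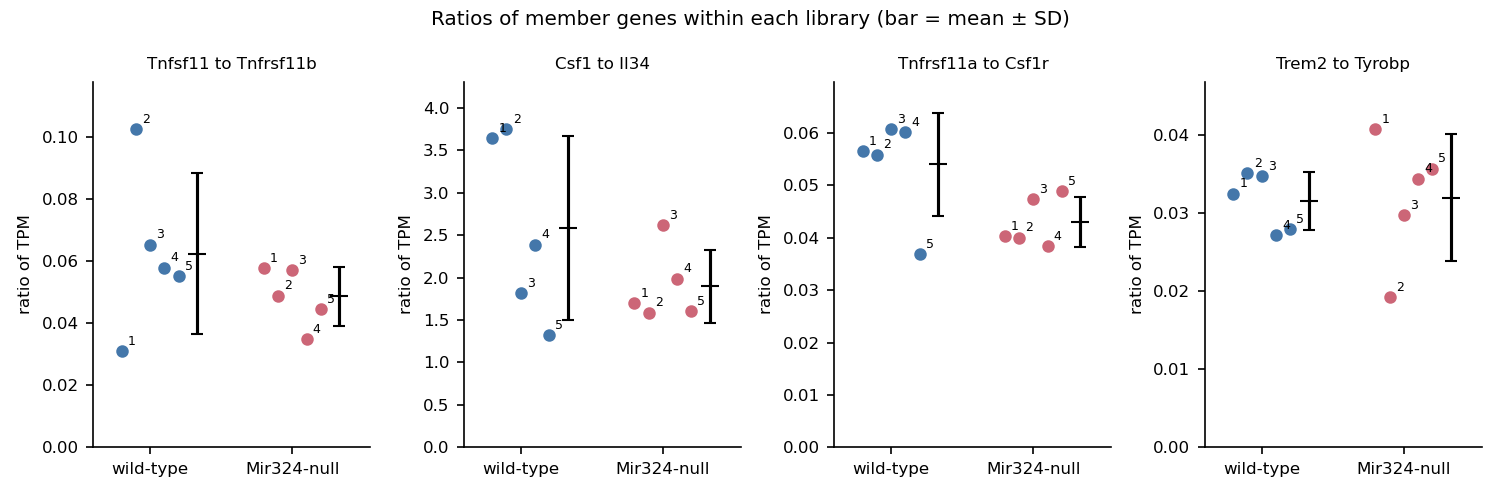
Ratio of the TPM of the named genes within each library, wild-type in blue and Mir324-null in red, with replicate numbers and the mean ± SD (n = 5) as a black bar. The null ratios of Tnfsf11 to Tnfrsf11b lie between the 2 most extreme wild-type mice, and wild-type replicate 5, at 0.0368, sits apart from its group in Tnfrsf11a to Csf1r.

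Tyrobp (ENSMUSG00000030579, chromosome 7, 30413760 to 30417585), the adaptor DAP12, was the most abundant of the 9 genes. It had 822, 1089.7, 734, 783 and 1047 TPM in the wild-type group and 876, 943, 840.2, 781 and 803 TPM in the null group, all 5 of which lay inside the wild-type range. The means of 895 ± 162 and 849 ± 64.1 TPM (SD, n = 5) differed by -0.061 (SE 0.119, 95% interval -0.32 to 0.20, exact permutation p = 0.627, Benjamini-Hochberg adjusted limma p = 0.915). Trem2 (ENSMUSG00000023992, chromosome 17, 48346401 to 48354147), a lipid-sensing receptor of macrophages and osteoclast precursors that signals through DAP12, had 26.7, 38.3, 25.5, 21.3 and 29.3 TPM in wild-type mice. Its null values of 35.7, 18.1, 25.0, 26.9 and 28.7 TPM covered nearly the same range. The difference was -0.074 (SE 0.182, 95% interval -0.47 to 0.33, exact permutation p = 0.706, Benjamini-Hochberg adjusted limma p = 0.936). The sign turned for Tyrobp after quantile normalization and for both genes after rescaling without haemoglobin genes. The ratio of Trem2 to Tyrobp ranged from 0.0272 to 0.0352 in wild-type and from 0.0192 to 0.0407 in null mice, and its log2 mean differed by -0.016 (exact permutation p = 0.976, 0.976 adjusted over 4 ratios). Without Mir324-null replicate 2, which had the lowest ratio, that difference was 0.16 (p = 0.222 in the exact permutation test).

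Over the 9 genes, 0 had an adjusted p under 0.05 in limma, as had 0 of the 13841 genes tested (0%), the smallest of which was 0.277. Before adjustment, Tnfsf11 and Tnfrsf11a, 2 of the 9, had p under 0.05, both lower in null mice, beside 7.30% of all genes tested in that direction, 4.28% in the other and 11.6% in either. The exact permutation test gave 1 of the 9 at that level, Tnfsf11. In 0 of the 9 did the groups fail to overlap, which was the case for 1.06% of genes in the lower and 0.881% in the higher direction. All 9 estimates were below 0 with TPM as deposited, as were 60.0% of all genes, and 3 of them, those of Il34, Trem2 and Tyrobp, were above 0 under some scaling. The median difference was -0.25 over the 9 and -0.045 over all genes tested.

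**Figure D3:**
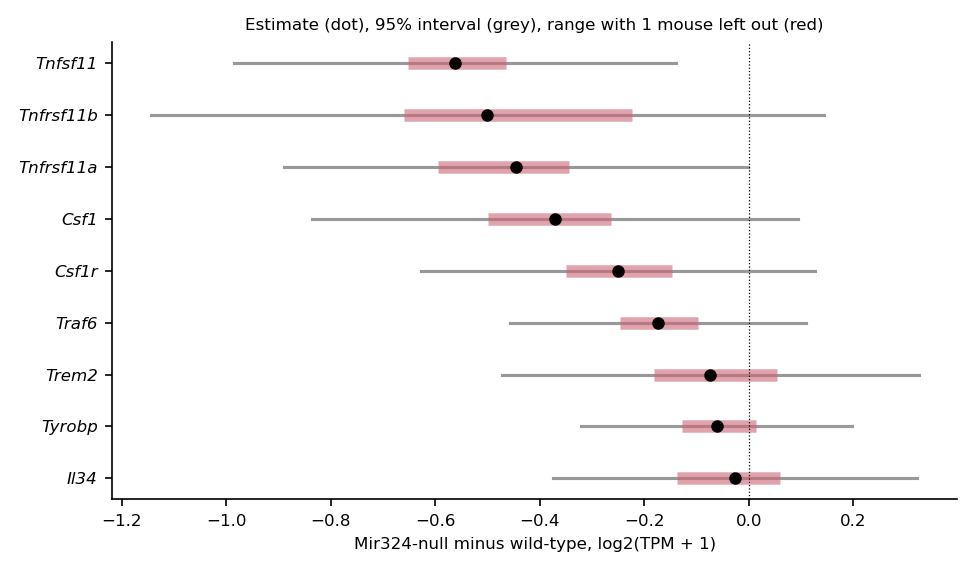
Difference between Mir324-null and wild-type mice on the log2(TPM + 1) scale for each gene, with the limma estimate as a dot, its 95% interval as a grey line and the range of estimates with 1 mouse left out as a red band. Tnfsf11 lies furthest from 0, at -0.56, and its band stays between -0.65 and -0.46, while the bands of Il34, Trem2 and Tyrobp cross 0.

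TPM allows the levels of different genes to be set in order, since it is a value per transcript length. In wild-type mice the order was Tyrobp, Csf1r, Tnfrsf11b, Trem2, Csf1, Il34, Traf6, Tnfrsf11a and Tnfsf11, and it was the same in null mice. Tyrobp was 10.7-fold above Csf1r in wild-type means and exceeded it in all 10 mice. Csf1r exceeded Tnfrsf11b in 9 of 10 mice, the exception being wild-type replicate 1. Trem2 and Csf1 did not differ beyond their spread, with Trem2 higher in 6 of 10 mice, and Il34 was above Traf6 in 9 of 10 with overlapping ranges. RANK was above its ligand in 9 of 10 mice, although their ranges overlapped as well. Across the 10 mice, the highest was 4.43-fold above the lowest for Tnfrsf11b, 3.48-fold for Tnfsf11, 2.86-fold for Tnfrsf11a and, as the least, 1.48-fold for Tyrobp. The place of Tnfrsf11b rests on wild-type replicate 1, without which its span was 2.39-fold, below those of Tnfsf11 and Tnfrsf11a.

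Other genes of the pathways were taken from 5 lists chosen by known function, with 0 genes in any list passing adjustment in limma. Over all genes tested, 60.0% were lower in null mice and 11.6% had an unadjusted p under 0.05 in either direction. Of 22 genes that carry the RANK signal, 7 were higher and 15 lower in null mice, and 1 had an unadjusted p under 0.05. That gene was Nfkbia, the inhibitor of NF-kB that is also its target, at 74.0 ± 4.95 and 56.9 ± 8.43 TPM (SD, n = 5, log2 difference -0.38, adjusted p in limma 0.306), and the next was Relb, a subunit of NF-kB (-0.18, adjusted 0.608). The median of the list was -0.055, near that of all genes. Of 15 genes of costimulation through activation motifs, 7 were higher and 8 lower with a median of -0.0048. The 2 at an unadjusted p under 0.05 in that list, both lower, were Siglec15 and Oscar, DAP12-linked and Fc receptor chain-linked receptors of osteoclasts. Siglec15 averaged 4.36 ± 1.56 and 2.03 ± 0.623 TPM (SD, n = 5, log2 difference -0.80, adjusted p in limma 0.308). Oscar averaged 8.19 ± 4.04 and 3.66 ± 2.13 TPM (SD, n = 5, log2 difference -0.96, adjusted p in limma 0.362).

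The 17 genes of CSF1 receptor signalling, among them kinases and phosphatases found in all myeloid cells, had a median of 0.022, with 11 higher, 6 lower and 0 at an unadjusted p under 0.05 in limma. Those with the smallest p were Pik3r1, a regulatory subunit of PI3 kinase (log2 difference 0.17, adjusted p in limma 0.599), and the kinase gene Akt1 (-0.15, adjusted 0.609). Among 12 transcription factors of the osteoclast lineage, 3 were higher and 9 lower, with a median of -0.20 and 0 at an unadjusted p under 0.05. Nfatc1, the factor that RANK signalling induces to complete osteoclast formation, averaged 30.0 ± 5.26 and 23.4 ± 5.25 TPM (SD, n = 5, log2 difference -0.35, adjusted p in limma 0.435), and Id2, a repressor of that programme, differed by -0.26 (adjusted 0.472). The list of 11 receptors through which hormones and cytokines regulate RANK ligand, or which bind it, had 1 gene higher and 10 lower and a median of -0.19. In it, 3 genes had an unadjusted p under 0.05, all lower. Lifr, the receptor of leukaemia inhibitory factor, averaged 33.7 ± 9.52 and 18.5 ± 6.42 TPM (SD, n = 5, log2 difference -0.84, adjusted p in limma 0.291). Lgr4, another receptor reported to bind RANK ligand, averaged 5.56 ± 1.71 and 3.64 ± 0.733 TPM (SD, n = 5, log2 difference -0.48, adjusted p in limma 0.366). The third was Pth1r, the parathyroid hormone receptor (-0.57, adjusted 0.414).

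Marker lists of the cell types such tissue can hold were described in the same way, with 0 genes of any list passing adjustment in limma. The counts of every list stand beside those of all 13841 genes tested. Of these, 60.0% were lower in null mice, 7.30% were lower at an unadjusted p under 0.05 and 4.28% higher at that level. In the osteoclast list of 13 genes, 10 of the 12 that passed the filter were lower in null mice and 2 higher, and 7 of the lower ones and both higher ones had an unadjusted p under 0.05. For Acp5, tartrate-resistant acid phosphatase, the means were 933 ± 370 TPM in wild-type mice and 428 ± 224 TPM in null mice, and for Ctsk, the collagen-degrading cathepsin K, 632 ± 258 and 251 ± 136 TPM (SD, n = 5). Dcstamp, needed for cell fusion, averaged 6.30 ± 2.65 and 2.06 ± 1.13 TPM (SD, n = 5). The lower genes without an unadjusted p under 0.05 were Clcn7, Ostm1 and Tcirg1 (log2 differences -0.31, -0.13 and -0.040). The 2 higher genes were Itgb3 and Car2 (log2 differences 0.35 and 0.50). In the list, the groups did not overlap for 1 gene, higher in null mice, and for 0 lower genes. Over all genes tested, these shares were 0.881% and 1.06%. The summed TPM of the osteoclast list ranged from 2581 to 4339 in wild-type and from 2376 to 3379 in null mice. This sum includes Car2, at 913 ± 210 and 1261 ± 119 TPM (SD, n = 5), which was higher in null mice where Acp5 and Ctsk were lower. Calcr, the calcitonin receptor, was under the filter at 0.377 and 0.146 TPM, and 0 of the 13 were at 0 in every library.

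The macrophage and monocyte list of 13 genes did not share this pattern, with 9 genes higher, 4 lower and a median of 0.057, against -0.57 for the osteoclast list. The 1 gene with an unadjusted p under 0.05 was Cd14, a lipopolysaccharide coreceptor, at 17.5 ± 5.13 and 12.6 ± 2.23 TPM (SD, n = 5, log2 difference -0.41, adjusted p in limma 0.425). Its summed TPM ranged from 1421 to 2029 in wild-type and from 1421 to 2146 in null mice. C1qa, a complement gene of tissue macrophages, averaged 186 ± 37.7 and 191 ± 11.2 TPM, and Adgre1, which encodes F4/80, 28.9 ± 5.78 and 30.3 ± 3.39 TPM (SD, n = 5). Among the cells that make RANK ligand, all 6 osteocyte markers that passed the filter were lower, 5 at an unadjusted p under 0.05, and the list summed to 306 to 1043 TPM among wild-type mice and 163 to 478 TPM among null mice, and to at most 646 TPM in wild-type mice other than replicate 1. Fgf23, the remaining osteocyte gene, averaged 0.119 and 0.0584 TPM. The osteoblast list of 9 genes, all lower and 6 at an unadjusted p under 0.05, summed to 7139 to 14682 and 3639 to 6940.1 TPM. The chondrocyte list had 6 lower genes and 1 higher among the 7 that passed, 5 of the lower ones at that level. It summed to 863 to 2270 and 821 to 1228 TPM, and to at most 1555 TPM in wild-type mice other than replicate 1. The 5 hypertrophic markers, all lower and 3 at that level, summed to 310.6 to 888 and 208 to 347 TPM. Their sum was at most 680 TPM in wild-type mice other than replicate 1. The 7 marrow stromal markers were closer, 6 lower and 1 higher, at 802 to 1169 and 718 to 1026 TPM. Some lists of cells outside these signals differed as well, and others did not. All 6 adipocyte markers were lower, 5 at an unadjusted p under 0.05 (median -0.72), as were all 8 B lineage markers, 4 of them at that level (median -0.44). All 7 erythroid markers were higher, 4 at that level (median 0.44). Of 6 endothelial markers, 5 were lower and 1 higher, 2 of the lower ones at that level (median -0.20). The synovial fibroblast, T cell and neutrophil lists had 0 genes at that level, with 3 of 7, 6 of 7 and 7 of 8 genes lower. Of 7 skeletal muscle markers, 3 passed the filter, 2 higher and 1 lower, with 0 at that level. The part of these cell types in the differences of Tnfsf11 and Tnfrsf11a was not tested.

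Tnfsf11, Tnfrsf11a and Csf1r were then compared over the 10 mice with the mean log2(TPM + 1) of each of the 15 marker lists, 45 relations in all, adjusted together. The 3 genes were picked once the values were known. Tnfsf11 followed 6 lists at an adjusted p under 0.05, by Pearson r and by Spearman rho alike. They were the osteoclast (r = 0.94, rho = 0.93, permutation p = 0.00019 and 0.00036, adjusted 0.0027 and 0.00397) and osteocyte lists (r = 0.92, rho = 0.95, permutation p = 0.00024 and 0.00015, adjusted 0.0027 and 0.00225), and the endothelial, hypertrophic, osteoblast and chondrocyte lists (r = 0.91, 0.89, 0.82 and 0.77). Its relation was thus not limited to osteocytes. Without the 2 mice most distant in the list, r was 0.91 for both the osteoclast and the osteocyte list, and with genotype means removed it was 0.88 and 0.86. For the endothelial, hypertrophic, osteoblast and chondrocyte lists it was 0.86, 0.80, 0.63 and 0.65 with genotype means removed. The permutations ran over both genotypes, so the p-values here and below include the difference between the groups.

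Tnfrsf11a had its highest r with the osteoclast list (r = 0.95, rho = 0.95, permutation p = 2e-05 and 0.00011, adjusted 0.0009 and 0.00225, r = 0.94 without 2 mice and 0.93 with genotype means removed). Next came the endothelial list (r = 0.83, rho = 0.88, permutation p = 0.0018 and 0.00171, adjusted 0.0101 and 0.00855, r = 0.84 without 2 mice and 0.74 with genotype means removed). In all, Tnfrsf11a followed 5 lists at an adjusted p under 0.05 by r and 5 by rho. The hypertrophic and osteocyte lists passed by both (r = 0.81 and 0.75, or 0.70 and 0.61 with genotype means removed). The adipocyte list passed by r alone (0.79) and the osteoblast list by rho alone (0.78). Csf1r, which marks the whole macrophage lineage, followed the endothelial (r = 0.89, rho = 0.95, permutation p = 0.00039 and 0.00013, adjusted 0.00351 and 0.00225, r = 0.83 without 2 mice) and osteoclast lists (r = 0.87, rho = 0.92, permutation p = 0.00145 and 0.00052, adjusted 0.00932 and 0.00397, r = 0.77 without 2 mice). With genotype means removed these r were 0.89 and 0.88. By r and rho alike, Csf1r also followed the osteocyte and hypertrophic lists at an adjusted p under 0.05 (r = 0.82 and 0.80, or 0.79 and 0.76 with genotype means removed). By rho alone, Csf1r also passed with the osteoblast and skeletal muscle lists (rho = 0.79 and 0.76). With the macrophage and monocyte list its r was 0.40 and its rho 0.44 (permutation p = 0.25 and 0.204, adjusted 0.312 and 0.256), and r was 0.68 without wild-type replicates 1 and 2. Differences between these correlations were not tested. Within a genotype only 5 mice were available, too few for a value of its own, and genes of a library share its total, so their TPM values are not independent.

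**Figure D4:**
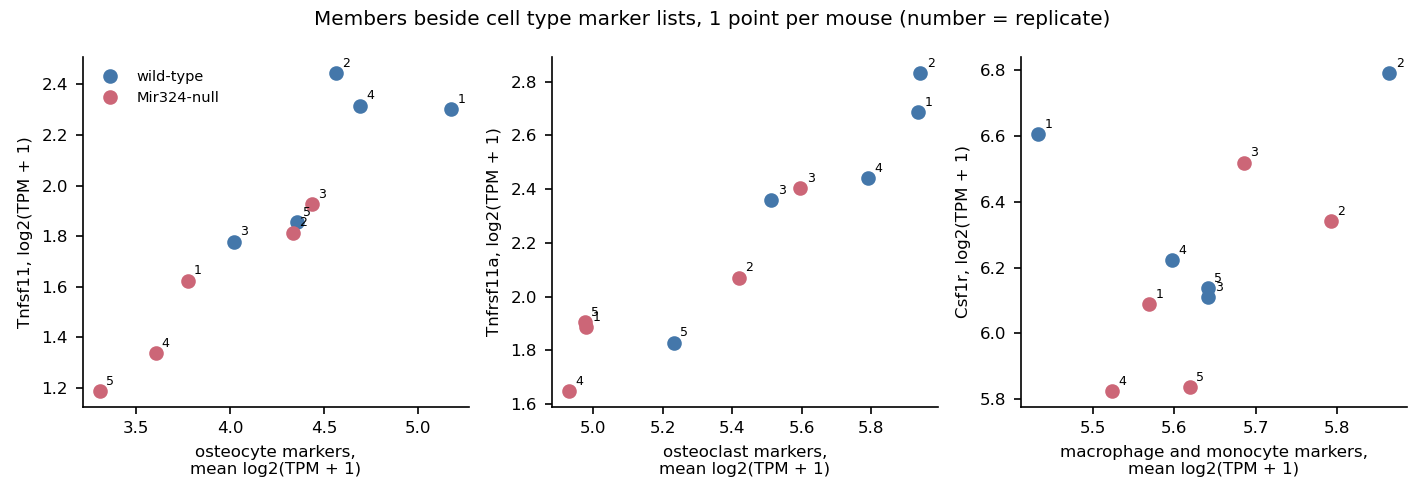
Level of Tnfsf11, Tnfrsf11a and Csf1r against the mean of 1 marker list each (osteocyte, osteoclast, and macrophage and monocyte), both as log2(TPM + 1), with 1 point per mouse, wild-type in blue, Mir324-null in red and replicate numbers beside the points. The first 2 panels form a line along which the genotypes overlap in the middle, and in the third wild-type replicate 1 has the lowest macrophage mean and the second highest Csf1r.

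Among pairs of the 9 genes, 5 were compared over the 10 mice. Tnfrsf11a and Csf1r varied together, with r = 0.86 (permutation p = 0.00134, adjusted 0.0067) and rho = 0.84 (permutation p = 0.00382, adjusted 0.0191), 0.73 without the 2 most distant mice and 0.84 with genotype means removed. Tnfsf11 and its decoy had r = 0.66 (permutation p = 0.0301, adjusted 0.0754) and rho = 0.64 (permutation p = 0.0556, adjusted 0.139), 0.78 without 2 mice and 0.55 with genotype means removed. The other pairs were looser. Csf1r and Tyrobp had r = 0.49 and rho = 0.54 (permutation p = 0.152 and 0.114, adjusted 0.253 and 0.191, r = 0.29 without 2 mice). Trem2 and its adaptor Tyrobp had r = 0.38 and rho = 0.41 (permutation p = 0.281 and 0.246, adjusted 0.352 and 0.308, r = 0.47 without 2 mice). Csf1 and Il34 had r = -0.036 and rho = 0.067 (permutation p = 0.922 and 0.865, adjusted the same, r = 0.42 without wild-type replicates 1 and 2).

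The genes whose variation over the 10 libraries was most like each member, after removal of genotype means, were sought among 10326 others with a mean of at least 5 TPM. The likeness is a Pearson r over 10 libraries and carries no test. For Tnfrsf11a they were Fcgrt, Slc37a2 and Atp6v0d2 (0.95, 0.95 and 0.94), the last a proton pump subunit of osteoclasts that had means of 47.5 and 26.7 TPM in the wild-type and null groups. For Csf1 they were Slc37a2, the osteoclast enzyme gene Acp5 and Tmem176b (0.98, 0.97 and 0.96). Tnfsf11 was closest to Bad, Enpp5 and the lysosomal enzyme gene Hexa (0.97, 0.95 and 0.95), and Tnfrsf11b to Cdon, Bcat1 and Anxa8 (all 0.99). Csf1r was closest to Tuba1a and the lysosomal genes Ctsa and Npc2 (0.99, 0.98 and 0.97). Trem2 was closest to Cdc42ep5, Gpnmb and Fabp5 (0.95, 0.89 and 0.86), of which Gpnmb is a lysosomal glycoprotein gene of macrophages, and Tyrobp to Msrb1 and the leukocyte genes Cd52 and Lsp1 (0.95, 0.95 and 0.94). Those of Traf6 were Copz1, Atxn2l and Txndc11 (0.99, 0.98 and 0.98) and those of Il34 were Thoc2, Mrpl50 and Ppid (0.94, 0.93 and 0.93).

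The table also divides each gene among its transcripts, which are estimates from shared reads and are given with no test. Tnfsf11 and Tnfrsf11b each had 1 transcript, of 316 and 401 codons. Csf1 was split between the transcript of 257 codons, Csf1-202, and those of 552 codons, Csf1-201 and Csf1-203. CSF1 is known to be made as a short form that stays on the cell surface and a longer one that is released. Csf1-202 held 42.0% ± 8.37 of Csf1 in wild-type and 41.4% ± 5.49 in null mice, Csf1-201 37.0% ± 7.06 and 35.1% ± 7.24, and Csf1-203 15.4% ± 3.63 and 17.1% ± 4.58 (SD, n = 5). The composition was thus alike in both groups within its spread, and Csf1-203, with a 3′ UTR of 259 bases against 2111 in the other 2, lacked the stretch with the GGATGC match.

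For Tnfrsf11a, the coding transcript Tnfrsf11a-201 held 75.4% ± 5.09 in wild-type and 73.9% ± 7.15 in null mice (SD, n = 5), and most of the rest was the retained-intron transcript Tnfrsf11a-203. Csf1r-201 held 91.8% ± 1.88 and 93.2% ± 0.651 of Csf1r (SD, n = 5), and Csf1r-202, with the same 977 codons and a longer 3′ UTR, most of the remainder. Trem2-201, of 227 codons, held 83.0% ± 4.10 and 84.0% ± 6.42, and Trem2-202, of 249 codons, 15.0% ± 4.68 and 13.0% ± 6.69 (SD, n = 5). In Il34, the coding transcript Il34-201 held 56.1% ± 16.0 and 55.8% ± 13.1, and the noncoding Il34-205 36.4% ± 12.4 and 24.7% ± 6.77 (SD, n = 5). These shares overlapped between the groups.

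**Figure D5:**
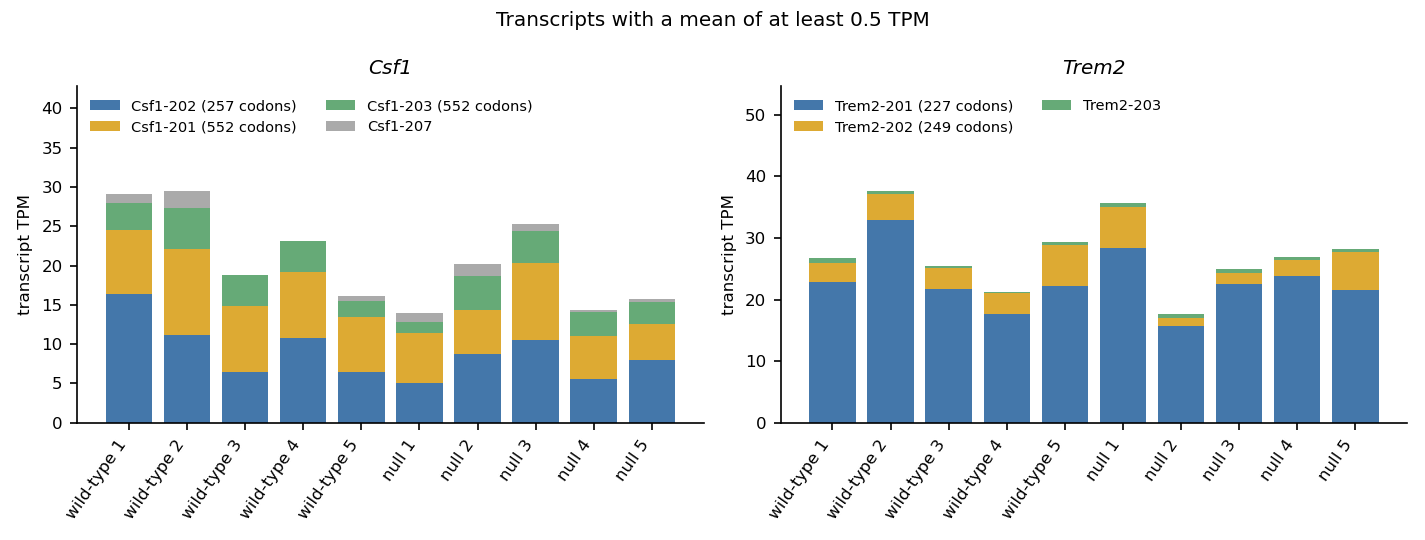
TPM of each transcript of Csf1 and Trem2 with a mean of at least 0.5 TPM, stacked per mouse from 0, with the number of codons where the annotation gives a complete coding sequence. In every mouse Csf1 is divided between a transcript of 257 and 2 of 552 codons, and Trem2-201 is the main transcript of Trem2.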

How the data were processed

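Libraries of total RNA from 10 mice were made with a low-input kit, per the labels' protocols. The deposited table gives TPM per Ensembl mouse transcript and library, and kallisto and DESeq2 are named in the submitters' processing notes without versions. These notes give GRCh38 as the build, although the transcripts are of mouse, so the authors' index is not known. Of 116912 transcripts, 115440 matched GENCODE M21 (GRCm38) without version numbers and were summed to genes, and the 1472 others held 0.275% to 0.356% of the TPM. Genes averaging 1 TPM or more were compared as log2(TPM + 1) in limma 3.58.1 (R 4.3.3, trend on mean expression, two-sided, Benjamini-Hochberg over 13841 genes, threshold 0.05). Members and ratios also had an exact permutation test, whose smallest p with all 10 mice is 0.00794, and relations between genes 100000 permutations (scipy 1.17.1). Named genes were the 9 members, the 2 with the smallest p of each pathway list, the 3 most like each member, and markers. Members and lists were chosen with earlier results of these data known. The limma comparison was tested on simulated data. Alternatives were other scalings, pseudocount and filters, no trend, a replicate block, and each mouse left out. Features of the proteins were not analysed here.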

Additional observations from a re-analysis of the deposited data

Results flagged for a closer look

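Of 66 sets of 5 mice examined for a single distant value (the 9 genes, 4 ratios and 20 transcripts in each genotype), 4 held one, where chance gives about 1 in 20. The ratio of Tnfrsf11a to Csf1r was 0.0368 in wild-type replicate 5, with the other wild-type mice between 0.0558 and 0.0607. Il34-205 had 1.44 TPM in wild-type replicate 2, with the others between 3.82 and 4.49 TPM. Tyrobp-201 had 133 TPM in wild-type replicate 1, against at most 1.02 TPM in the other wild-type mice, and 67.5 TPM in Mir324-null replicate 4, against 2.24 to 6.86 TPM in the other null mice. In the same 2 libraries Tyrobp-202 was at its lowest, at 669.7 and 704 TPM, and the sum for Tyrobp did not stand apart.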

How the results depend on the processing

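Of 280 recomputed values, 248 were counted as unchanged in direction and side of the adjusted threshold. A single gene crossing the unadjusted level did not count as a change in its own difference. A fall in the number of the 9 genes at that level did count as a change, while a rise to 3 did not. Tnfrsf11a had an unadjusted limma p under 0.05 in 2 of 10 estimates with 1 mouse left out and in 1 of 7 other alternatives. The number of all genes at that level, 1603 in the report, ranged from 1106 to 2062. The difference of Tnfsf11 had an unadjusted limma p under 0.05 in all 17 alternatives run for it and an adjusted p of 0.195 to 0.585. Il34 reversed to 0.022 after median ratio scaling, 0.051 after quantile normalization and 0.056 after rescaling without haemoglobin genes, Tyrobp to 0.032 after quantile normalization and 0.029 without haemoglobin genes, and Trem2 to 0.013 without haemoglobin genes. With 1 mouse left out the ranges were -0.14 to 0.060 for Il34, -0.18 to 0.054 for Trem2, -0.13 to 0.014 for Tyrobp and -0.11 to 0.16 for the ratio of Trem2 to Tyrobp. The number of the 9 genes at an unadjusted p under 0.05, 2 in the report, was 1 after median ratio scaling, quantile normalization, rescaling without haemoglobin genes, with a pseudocount of 0.1 and without filter. It was 0 with a mean of at least 5 TPM, which removes Tnfsf11 and Tnfrsf11a, and 1 to 3 with 1 mouse left out. Genes with an adjusted p under 0.05 numbered 0 to 1 with 1 mouse left out, namely Gm37419 without wild-type replicate 3, an immunoglobulin kappa variable gene without wild-type replicate 4 and Rpl30-ps9 without Mir324-null replicate 1, each singled out after its value was seen. Adding 1 TPM to both genes moved the log2 ratio of Tnfsf11 to Tnfrsf11b from -0.28 to -0.061 and that of Tnfrsf11a to Csf1r from -0.31 to -0.19. With the replicate number as a block, 1 of the 9 genes had an unadjusted p under 0.05 and 1168 of all genes instead of 1603. Whether the numbers mark pairs is not stated in the labels. Same-numbered mice had correlations of deviations from -0.14 to 0.056, and 0 of 10 libraries was closest to its own number. Such values cannot exclude a shared litter, day or batch. Read depth is unknown, which leaves the counting error of Tnfsf11 and Tnfrsf11a, at a few TPM, unmeasured, and the null allele was not checked on the microRNA. The cause of these changes was not tested.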
